A study of Macaca fascicularis with 4 samples.

Results

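Enzymes that modify drugs, hormones and amines (9 genes) were followed across the tissues of the cynomolgus monkey (Macaca fascicularis). They were AOX1, CES1, UGT1A1, UGT2B20, SULT2A1, AOC1, AOC3, MGST1 and AADAC, chosen by name, and all 9 were among the 13982 genes named in the files. They were divided, as the selection set out, into 5 hepatic enzymes (UGT1A1, UGT2B20, SULT2A1, AOC1 and AADAC) and 4 that are also present in fat (AOX1, CES1, AOC3 and MGST1). Full-length cDNA of liver, muscle, oWAT and sWAT was read on the PacBio Sequel II platform, with 1 library per tissue and RNA of 5 monkeys pooled in each. No treatment, age or sex is stated in the labels. The names oWAT and sWAT are used as the labels have them, WAT commonly standing for white adipose tissue.

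Detoxification enzymes act on small molecules in steps. Oxidases such as AOX1 and the amine oxidases, and hydrolases such as CES1 and AADAC, expose or create a reactive group. Transferases then attach a polar group, and the conjugates leave the cell for bile or blood. The group is glucuronic acid for most of the UGT family, sulfate for the SULT family and glutathione for the GST family and MGST1. The liver is the main site of these reactions, and several of the enzymes also have roles in other tissues, such as amine oxidation at the cell surface by AOC3.

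Counts assigned to named genes totalled 383896 to 439872 per library, and levels are given as CPM, the count scaled to a total of 1000000. Ratios between libraries carry an exact 95% Clopper-Pearson interval, and levels an exact 95% Poisson interval. Both cover counting error only, since a single pooled library per tissue shows no spread between animals. The word called is used of a ratio whose lower bound exceeded 2 and whose upper library held 10 counts or more. A count of 0 was compared at a floor of 3 counts, which equals 6.82 to 7.81 CPM per library, and such a ratio is given as "at least". That figure is the ratio to the floor, and the exact 95% lower bound lies below it. For UGT1A1 in liver over sWAT the figure is 112 and the bound 90.6. No p-values were computed. The tissues were checked against marker lists of 10 genes each. Hepatocyte markers had 67467 counts in liver (9 of 10 genes present), against 1 in muscle, 4 in oWAT and 1 in sWAT. Myofibre markers had 61053 in muscle and 47 to 58 elsewhere, and adipocyte markers had 7421 in oWAT, 7937 in sWAT, 1240 in muscle and 390 in liver. Mesothelium markers had 1604 counts in oWAT and 0 to 10 elsewhere.

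The 9 enzymes together took 1.75% of the liver counts (95% binomial interval 1.72 to 1.79). They took 0.172% of the sWAT counts (0.160 to 0.186), 0.147% in oWAT (0.136 to 0.160) and 0.0218% in muscle (0.0177 to 0.0267). All 9 had counts in liver, 5 in oWAT, 4 in sWAT and 3 in muscle. In liver 8 of the 9 reached 10 counts, AOC3 being the exception with 3, and 7 of the 9 were called higher there than in each of the other 3 libraries. The same rule called 10.8% of the 4944 genes that reached 10 counts in liver, a share that applies to every list below. The enzymes and lists were chosen with earlier results of these data known, so this comparison is a description and not a test. The median log2 ratio of those 8 enzymes to the highest other library was 7.54 with 0.5 counts added, or 5.72 with zeros at the floor, beside -0.73 and -0.74 over all 4944 genes. The enzymes not called were MGST1 and AOC3. In muscle 3 of the 9, AOX1, CES1 and AOC3, reached 10 counts, and 0 were called there against each of the other libraries. Of the 5809 genes with at least 10 counts in muscle, 6.71% were.

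**Figure D1:**
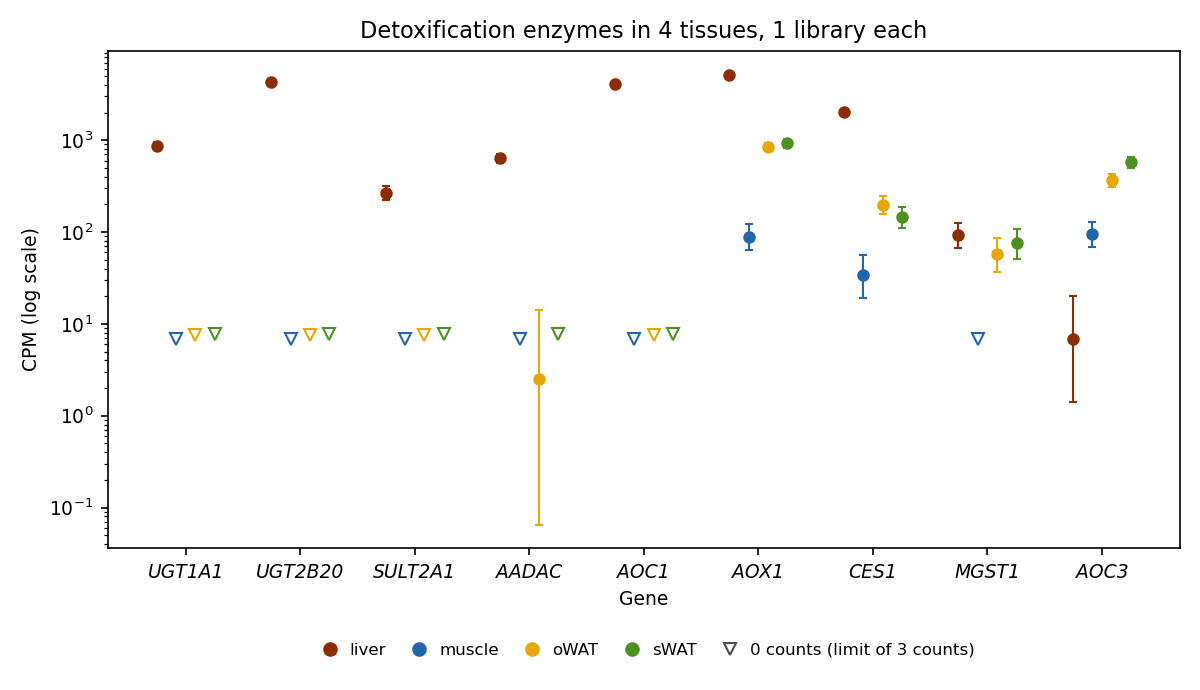
Level of each enzyme in each library, in CPM on a log axis. Points carry exact 95% Poisson intervals of the count, and open triangles mark the limit of 3 counts for a library with 0 counts. UGT1A1, UGT2B20, SULT2A1 and AOC1 have counts in liver alone, AOX1 and CES1 stand highest in liver with lower levels in fat and muscle, and AOC3 is lowest in liver.

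The glucuronosyltransferases were detected in liver alone. UGT1A1, the enzyme that conjugates bilirubin, had 383 counts in liver (875 CPM, interval 790 to 967) and 0 in muscle, oWAT and sWAT. Its liver level was at least 112-fold that of sWAT, at least 116-fold that of oWAT and at least 128-fold that of muscle. The exact lower bounds were 90.6, 93.7 and 104 in the same order. UGT2B20, a macaque member of the UGT2B group that acts on steroids and drugs, had 1904 counts in liver (4351 CPM, 4158 to 4551) and 0 in the other 3 libraries. That is at least 557-fold over sWAT, at least 576-fold over oWAT and at least 638-fold over muscle. Sequences within the UGT1A and UGT2B groups are very similar, and how reads matching several members were counted is not stated, so reads of other members could be included. Of 29 UGT genes listed, 5 had counts and 4 reached 10 counts in liver. All 4 were called there, the others being UGT3A1 (774 liver counts and 0 elsewhere, at least 226-fold over sWAT) and UGT2A3 (130 and 0, at least 38.0-fold). UGT8, which makes galactosylceramide and not drug conjugates, was the only one with counts outside liver, with 1 or 2 in each library.

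SULT2A1, which sulfates dehydroepiandrosterone and bile acids, followed the same pattern at 117 liver counts (267 CPM, 221 to 320) against 0 in each other library. Liver stood at least 34.2-fold over sWAT, 35.4-fold over oWAT and 39.2-fold over muscle, with exact 95% lower bounds of 27.4, 28.3 and 31.4. The exact 95% Poisson interval of 0 counts reaches 8.39 CPM in muscle, 9.30 in oWAT and 9.61 in sWAT. Its relatives were not all restricted in this way. SULT1B1, which sulfates thyroid hormones and phenols, had 95 counts in liver, 5 in oWAT, 10 in sWAT and 0 in muscle, 8.33-fold higher in liver than in sWAT (4.34 to 17.9). SULT1C4 had 68 in liver and 1 to 3 in the others, 20.6-fold over oWAT (6.74 to 102). All 3 of the sulfotransferases with at least 10 liver counts were called, out of 12 listed, with a median log2 ratio of 4.15, or 4.36 with zeros at the floor.

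AADAC, a deacetylase of the endoplasmic reticulum, had 277 counts in liver (633 CPM, 561 to 712), 1 in oWAT and 0 in muscle and sWAT. Liver stood at least 81.0-fold over sWAT and at least 92.8-fold over muscle. The ratio to the single oWAT count was 251, with an interval of 44.7 to 9956. The hepatocyte marker ALB had 61515 counts in liver, 1 in oWAT and 0 in muscle and sWAT. The whole hepatocyte list had 4 counts in oWAT and 1 each in muscle and sWAT. The source of the AADAC count in oWAT was not tested.

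AOC1, the diamine oxidase that breaks down histamine and putrescine, had 1810 counts in liver (4136 CPM, 3948 to 4331) and 0 in muscle, oWAT and sWAT. Liver stood at least 529-fold over sWAT, at least 547-fold over oWAT and at least 606-fold over muscle for this gene. AOC3, the amine oxidase also known as vascular adhesion protein, showed the opposite distribution, with 3 counts in liver, 146 in oWAT, 222 in sWAT and 42 in muscle. These correspond to 6.86 CPM in liver, which is the level of the 3-count floor, 95.5 in muscle (68.8 to 129), 368 in oWAT (311 to 433) and 578 in sWAT (505 to 660). Each step in the order sWAT, oWAT, muscle, liver exceeded counting error. The ratio of sWAT to oWAT was 1.57 (1.27 to 1.95), that of oWAT to muscle 3.85 (2.72 to 5.57) and that of muscle to liver 13.9 (4.45 to 70.2). Of the 9 enzymes, 4 had at least 10 counts in both WAT libraries and could be called there over liver. AOC3 was the only 1 of these 4 called, at 53.7-fold in oWAT (18.0 to 263) and 84.3-fold in sWAT (28.5 to 412). That call was made for 20.9% of the 5520 genes with at least 10 counts in both WAT libraries.

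Summed levels of several marker lists were set beside AOC3. The summed level of the endothelium list (10 genes, 9 or 10 of them present in each library) was lowest in liver (372 CPM), followed by muscle (1271), oWAT (2593) and sWAT (4413). That of the smooth muscle and pericyte list was 117, 1505, 1860 and 2475 CPM in the same order, with 8 of 10 genes present in liver and all 10 in the others. Both lists followed the order of AOC3, as did the adipocyte list (891, 2819, 18702 and 20675 CPM) and the fibroblast list (174, 9546, 14914 and 38081 CPM). The step from oWAT to sWAT rested on 1 gene in the adipocyte and in the fibroblast list. Without COL1A1 the fibroblast list stood at 7344 CPM in oWAT and 6684 in sWAT, and without LPL the adipocyte list at 11542 and 11482. The summed endothelium and smooth muscle lists kept the order without their most abundant gene. Single genes of the smooth muscle list did not all share it. RGS5 (530, 348 and 260 CPM in muscle, oWAT and sWAT) and SMTN were highest in muscle, and LMOD1 and CNN1 in oWAT. The other genes of that list, PDGFRB, MYH11, MCAM, ACTA2, TAGLN and NOTCH3, followed the order. Of 8 measured, 0 were called in both WAT libraries over muscle. Their median log2 ratio was 0.50, beside 0.42 over all genes. The macrophage list did not follow the order of AOC3, at 681, 452, 1706 and 1282 CPM in liver, muscle, oWAT and sWAT. In liver the endothelial markers PECAM1 and CDH5 had 44 and 30 counts, and KDR had 17, against 5 in muscle; CLDN5 was at 0 in liver and muscle and at 1 in each WAT library. MCAM and NOTCH3 of the smooth muscle list and PLIN1, CIDEC and LEP of the adipocyte list were at 0 in liver. The part of these cell types in the AOC3 levels was not tested. In tissue RNA, fewer cells of a type and less RNA per cell cannot be told apart.

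The remaining amine oxidases were spread over the tissues. MAOA, a mitochondrial monoamine oxidase, had 134 counts in liver, 277 in oWAT, 238 in sWAT and 55 in muscle, and was called in both WAT libraries over muscle (4.96-fold for sWAT, 3.68 to 6.78). Its ratio of sWAT to liver was 2.02 (1.63 to 2.52) and was not called. MAOB, the other mitochondrial form, was called in liver, with 317 counts against 68 in oWAT, 28 in muscle and 24 in sWAT, and a ratio to oWAT of 4.23 (3.24 to 5.58). Of 7 amine oxidases listed, AOC1 and MAOB were called in liver out of 3 measured there. AOC3 and MAOA were called in both WAT libraries over muscle, also out of 3 (MAOA alone with TMM or DESeq2 scaling). Over all genes these calls were made for 10.8% and 7.05%. In the RefSeq annotation of the assembly T2T-MFA8v1.1, AOC2 lies directly beside AOC3. It had 0 counts in liver and muscle, 4 in oWAT and 10 in sWAT. The files do not show how reads that could belong to either neighbour were assigned.

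**Figure D2:**
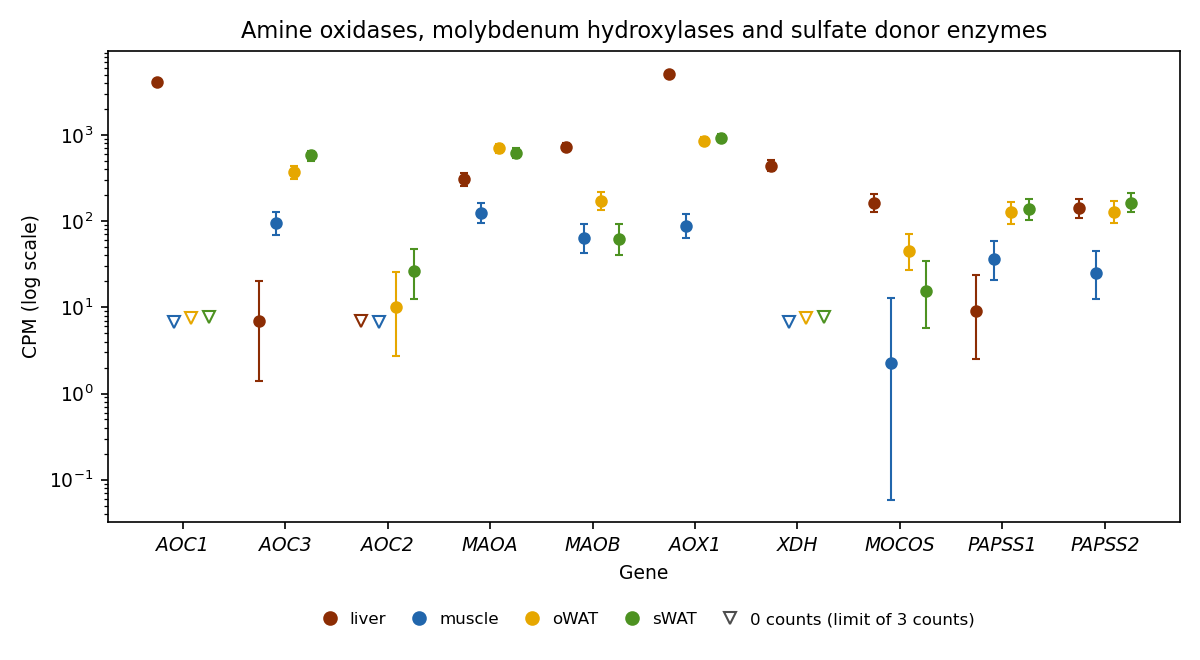
Levels of the amine oxidases, of AOX1 with XDH and MOCOS, and of the sulfate donor enzymes PAPSS1 and PAPSS2, in CPM on a log axis with exact 95% Poisson intervals. Open triangles mark the limit of 3 counts where the count was 0. AOC1 and XDH have counts in liver alone, while AOC3 and PAPSS1 are lowest in liver.

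AOX1 was abundant in liver and present in every library. This molybdenum hydroxylase oxidizes aldehydes and nitrogen-containing rings. It had 2247 counts in liver, 337 in oWAT, 355 in sWAT and 39 in muscle, or 5135 CPM (4925 to 5352), 849 (761 to 945), 925 (831 to 1026) and 88.7 (63.0 to 121). Liver was highest, muscle lowest, and the WAT libraries lay between them. The liver level was 5.55-fold that in sWAT (4.96 to 6.23), 6.05-fold that in oWAT (5.39 to 6.80) and 57.9-fold that in muscle (42.2 to 81.7). Both WAT libraries in turn stood above muscle, oWAT 9.58-fold (6.86 to 13.7) and sWAT 10.4-fold (7.48 to 14.9). The WAT libraries did not differ beyond counting error, with a ratio of sWAT to oWAT of 1.09 (0.935 to 1.27). Hepatocyte markers were near 0 in fat: ALB had 1 count in oWAT and 0 in sWAT, and FGB and CPS1 had 0 in both.

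XDH, the xanthine oxidoreductase that shares its cofactor and fold with AOX1, had 192 counts in liver and 0 in the other libraries, which puts liver at least 56.1-fold over sWAT. The fat and muscle counts of AOX1 were not matched by counts of XDH. MOCOS, the sulfurase that activates both enzymes, had 71 counts in liver, 18 in oWAT, 6 in sWAT and 1 in muscle, 3.58-fold higher in liver than in oWAT (2.11 to 6.38). Of 13 genes of molybdenum enzymes and their cofactor, 7 were measured in liver and 5 called there, with MOCS1 added by TMM or DESeq2 scaling. They included the amidoxime-reducing enzyme MTARC2, with 185 counts against 24 in muscle, 33 in oWAT and 44 in sWAT, a ratio to sWAT of 3.69 (2.64 to 5.25). GPHN, gephyrin, which completes the cofactor, had 90 counts in liver and 53 in muscle, a ratio of 1.71 (1.20 to 2.44) that was not called. The median log2 ratio of the list was 1.87, or 1.88 with zeros at the floor. In both WAT libraries over muscle, AOX1 was the only one called of 4 measured, beside 7.05% of all genes. In the RefSeq annotation AOX4 and AOX2 follow AOX1 on the chromosome. AOX2 had 0 counts in liver, 12 in oWAT, 8 in sWAT and 4 in muscle, and AOX4 had 2 in sWAT and 0 in the others.

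CES1, a carboxylesterase that hydrolyses ester drugs and lipid esters, had the same order of liver, fat and muscle. It had 894 counts in liver, 78 in oWAT, 56 in sWAT and 15 in muscle, or 2043 CPM (1911 to 2181), 197 (155 to 245), 146 (110 to 189) and 34.1 (19.1 to 56.2). Its liver level was 10.4-fold that in oWAT (8.24 to 13.3), 14.0-fold that in sWAT (10.7 to 18.7) and 59.9-fold that in muscle (36.1 to 107). Both WAT libraries exceeded muscle, oWAT 5.76-fold (3.29 to 10.8) and sWAT 4.28-fold (2.39 to 8.14). The ratio of oWAT to sWAT was 1.35, with an interval of 0.944 to 1.93 that includes 1. Carboxylesterases are close relatives, and shared reads carry the same uncertainty as those of the UGT genes.

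Of 20 esterases and epoxide hydrolases listed, 10 were measured in liver and 8 called there, beside 10.8% of all genes. All 10 were called with TMM or DESeq2 scaling, beside 15.6% and 15.4% of all genes. The list's median log2 ratio was 3.12, or 3.14 with zeros at the floor. CES1 and AADAC are among the 8. EPHX1, the microsomal epoxide hydrolase, had 470 counts in liver, 74 in oWAT, 41 in sWAT and 41 in muscle, and was 5.76-fold higher than in oWAT (4.50 to 7.46). EPHX2, the soluble form, had 214 counts against 7 in muscle, 26 in oWAT and 6 in sWAT, a ratio to oWAT of 7.46 (4.95 to 11.7). ACHE, the acetylcholinesterase of the neuromuscular junction, was called in muscle over each other library, with 32 counts there, 1 in liver, 1 in oWAT and 0 in sWAT, at least 9.31-fold over sWAT. In both WAT libraries over muscle, CES1 was the only one called of 5 measured, and the list's median log2 ratio there was 0.20, beside 0.42 over all genes. With TMM or DESeq2 scaling in place of library totals, 0 of the 5 were called and that median turned to -0.22 and -0.17.

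MGST1 was the least uneven of the enzymes between liver and fat. It encodes a microsomal glutathione transferase that also reduces lipid peroxides. Its counts were 41 in liver, 23 in oWAT, 29 in sWAT and 0 in muscle, or 93.7 CPM (67.2 to 127), 58.0 (36.7 to 87.0), 75.5 (50.6 to 108) and 0. Liver, sWAT and oWAT did not differ beyond counting error, with a ratio of liver to sWAT of 1.24 (0.752 to 2.07), of liver to oWAT of 1.62 (0.947 to 2.82) and of sWAT to oWAT of 1.30 (0.728 to 2.36). With TMM or DESeq2 scaling the ratio of liver to oWAT became 3.25 (1.90 to 5.67) and 3.21 (1.88 to 5.60), and the intervals of liver to sWAT became 1.36 to 3.75 and 1.31 to 3.61, above 1 but not above 2. Against muscle MGST1 was at least 13.7-fold higher in liver, at least 11.1-fold higher in sWAT and at least 8.50-fold higher in oWAT.

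Glutathione transferases differed in where they were found. GSTM5 had 1605 counts in liver, 137 in oWAT, 80 in sWAT and 48 in muscle, 10.6-fold higher than in oWAT (8.92 to 12.7). GSTA5 had 677 in liver and 0 to 3 elsewhere, 205-fold over oWAT (69.7 to 995). GSTZ1, which also acts in tyrosine breakdown, had 70 in liver and 0 to 2 elsewhere. GSTP1 went the other way, with 0 counts in liver, 11 in muscle and 15 in each WAT library, at least 5.51-fold higher in oWAT than in liver, but neither TMM nor DESeq2 scaling kept that call. Of 26 genes of this list 6 were measured in liver and 4 called there, beside 10.8% of all genes. MGST1 was the only one called in both WAT libraries over muscle, of 3 measured, beside 7.05% of all genes. GSTM and GSTA genes are near-identical copies in primates, so single members of these groups are uncertain.

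**Figure D3:**
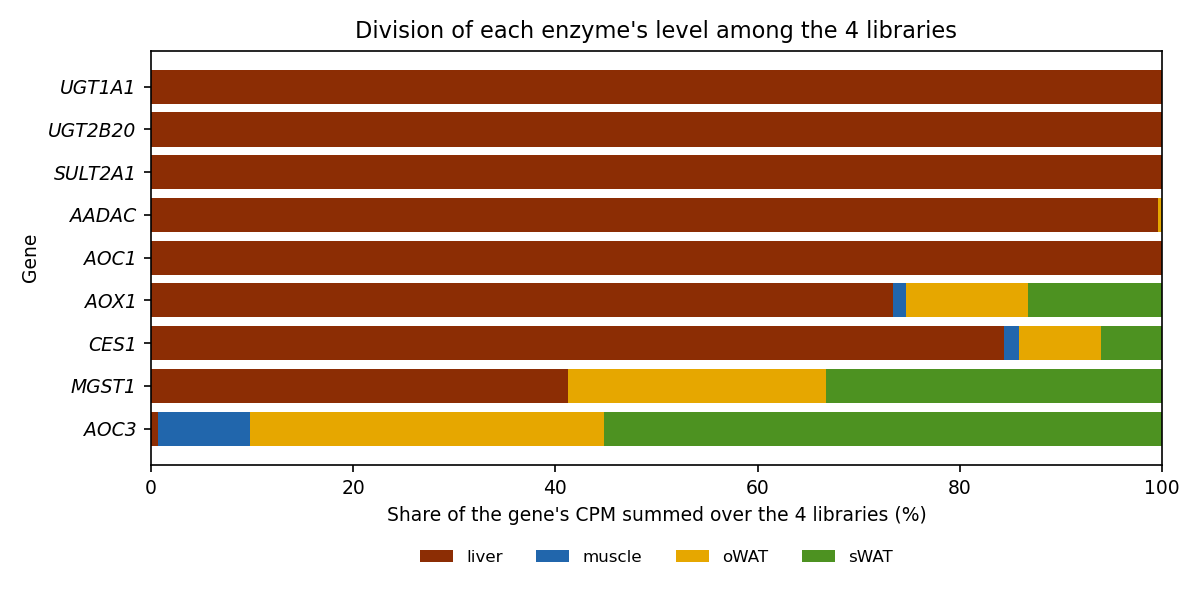
Division of each enzyme's CPM, summed over the 4 libraries, among liver, muscle, oWAT and sWAT, in percent. Liver holds 100% for UGT1A1, UGT2B20, SULT2A1 and AOC1, 99.6% for AADAC, 84.4% for CES1, 73.4% for AOX1, 41.2% for MGST1 and 0.654% for AOC3.

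The enzymes present in fat were compared with muscle and between the WAT libraries. All 4 of AOX1, CES1, AOC3 and MGST1 were called in both WAT libraries over muscle, a call made for 7.05% of 5520 genes. These 4 were set apart as present in fat, with earlier results of these data known. The comparison with all genes is therefore no test of the group. The other 5 enzymes had at most 1 count in any of these libraries and were not measured in this comparison. TMM scaling moved every log2 ratio of oWAT to muscle by -0.56, of sWAT to muscle by -0.41, of liver to oWAT by 1.01 and of liver to sWAT by 0.86, and DESeq2 scaling by -0.55, -0.36, 0.99 and 0.80. The call did not hold for CES1 and AOC3 with TMM or DESeq2 scaling. CES1 in sWAT then stood 3.21-fold (1.79 to 6.11) and 3.32-fold (1.85 to 6.33) over muscle, and AOC3 in oWAT 2.61-fold (1.84 to 3.77) and 2.63-fold (1.86 to 3.81). AOX1 and MGST1 kept the call with both scalings.

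Adipocyte markers were present in the muscle library, with 9 of 10 genes detected and CIDEC at 0. ADIPOQ had 43 counts there, against 915 in oWAT and 1117 in sWAT. Per 1000 counts of the adipocyte list, AOX1 had 31.5 counts in muscle, 45.4 in oWAT and 44.7 in sWAT. On the same scale CES1 had 12.1, 10.5 and 7.06, AOC3 had 33.9, 19.7 and 28.0, and MGST1 had 0, 3.10 and 3.65. The list includes GPD1, which had 667 of the 1240 list counts in muscle and 338 of the 390 in liver and is not confined to fat cells. Without GPD1 the order turned for AOX1, at 68.1 in muscle, 53.1 in oWAT and 49.2 in sWAT. CES1 then had 26.2, 12.3 and 7.76, AOC3 had 73.3, 23.0 and 30.8, and MGST1 had 0, 3.62 and 4.02. With LPL left out in place of GPD1, AOX1 stayed higher in fat, at 39.5 in muscle, 73.6 in oWAT and 80.5 in sWAT. CES1 was then at 15.2, 17.0 and 12.7, AOC3 at 42.5, 31.9 and 50.4, and MGST1 at 0, 5.02 and 6.58. LPL had 252 counts in muscle. These ratios depend on the choice of marker. The part of adipocytes in the muscle counts of these enzymes was not tested.

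None of the 4 was called between the WAT libraries, where the rule called 1.43% of genes in oWAT over sWAT and 0.767% in the other direction. The ratio of AOC3 in sWAT to oWAT was the only one of the 4 whose interval lay above 1. For AOX1 the interval included 1 with library totals, and it lay just above 1 with TMM (1.21, 1.04 to 1.41) and DESeq2 scaling (1.24, 1.06 to 1.44).

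**Figure D4:**
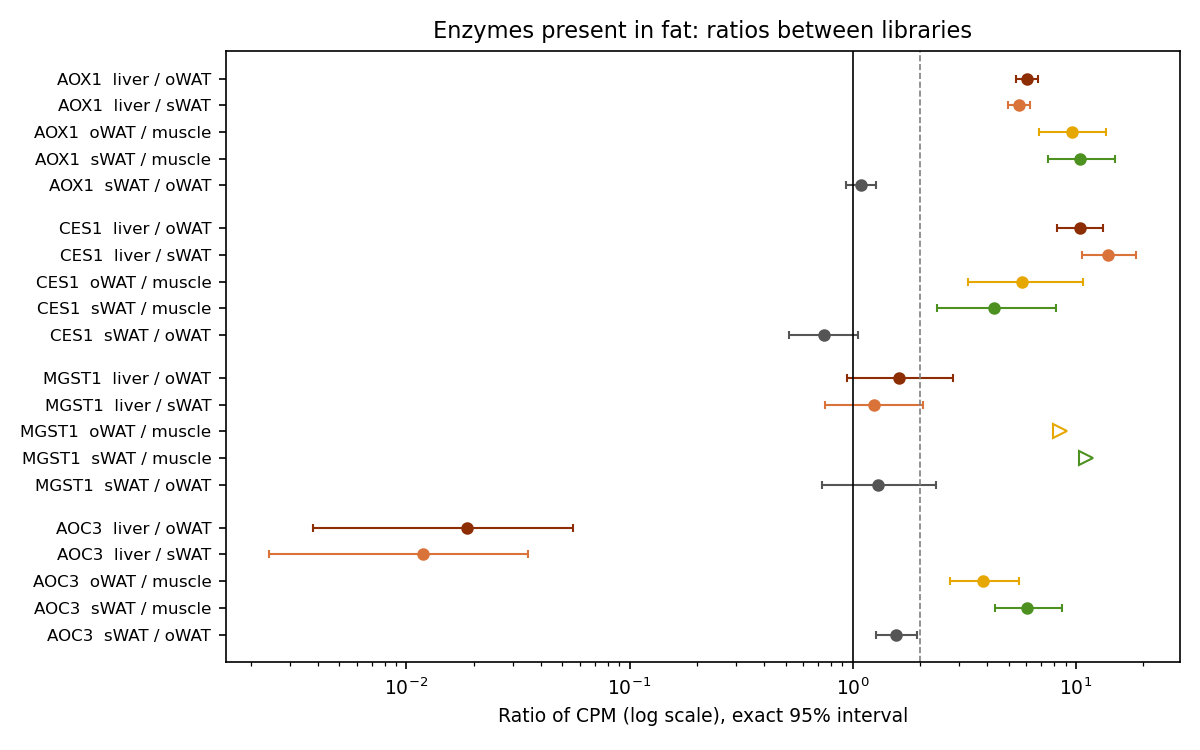
Ratios of CPM between libraries for AOX1, CES1, MGST1 and AOC3, on a log axis, with exact 95% intervals. The solid line marks 1 and the dashed line 2, and open triangles are ratios to the floor of 3 counts where muscle had 0. The ratios of either WAT library to muscle lie above the dashed line with their intervals, while the ratios of liver to fat are above it for AOX1 and CES1, near 1 for MGST1 and far below 1 for AOC3.

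Genes that supply the conjugation partners differed in where they were highest. UGP2 and UGDH make the glucuronic acid donor of the UGT enzymes. UGP2 had 313 counts in liver against 106, 76 and 73 in muscle, oWAT and sWAT, and was called (2.97-fold over muscle, 2.37 to 3.74). UGDH had 274 against 65, 92 and 113, a ratio to sWAT of 2.13 (1.70 to 2.67) that needed TMM or DESeq2 scaling to be called. SLC35D1, which carries the donor into the endoplasmic reticulum, had 145 against 15, 17 and 19 and was called (6.70-fold over sWAT, 4.14 to 11.4). PAPSS1 and PAPSS2 make the sulfate donor of SULT2A1. PAPSS1 had 4 counts in liver, 50 in oWAT, 53 in sWAT and 16 in muscle, and was called in both WAT libraries over liver (13.8-fold in oWAT, 5.06 to 52.6). PAPSS2 had 62, 51, 63 and 11 in the same order, and was called in both WAT libraries over muscle with library totals (5.14-fold in oWAT, 2.65 to 10.9) but not with TMM or DESeq2 scaling. Fat had counts of both donor enzymes and 0 counts of SULT2A1. In all, 2 of 9 measured genes of this list were called in liver (4 with TMM or DESeq2 scaling). Over all genes 10.8% were called there, or 15.6% with TMM scaling. The list's median log2 ratio in liver was 0.51, or 0.52 with zeros at the floor, beside -0.73 and -0.74 over all genes.

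Among transcription factors of detoxification genes, 6 of 10 measured were called in liver, beside 10.8% of all genes, with a median log2 ratio of 5.08, or 2.45 with zeros at the floor. NR1I2, the xenobiotic receptor PXR, had 126 counts in liver, 2 in oWAT and 0 in sWAT and muscle, at least 36.8-fold over sWAT. HNF4A, a hepatocyte regulator, and NR1I3, the receptor CAR, had 96 and 25 counts in liver and 0 elsewhere. NFE2L2, which drives antioxidant genes, had 28 counts in liver, 90 in oWAT, 38 in sWAT and 69 in muscle. ARNT, the partner of the aryl hydrocarbon receptor, had 71, 142, 117 and 85 in the same order. Neither was called in liver. PPARG, the adipocyte receptor, had 0 counts in liver, 7 in muscle and 32 and 33 in oWAT and sWAT, and was at least 11.8-fold higher in oWAT than in liver.

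Genes with a similar division among the 4 libraries were ranked by the distance between share vectors (0 for identical division) over 5381 other genes with a symbol and at least 50 counts. TTPAL (distance 0.0171), TTC38 (0.0283) and AMDHD1 (0.0329), an enzyme of histidine breakdown, lay nearest to AOX1. GSTM5 (0.0167), the glycerol kinase gene GK (0.0210) and PGRMC1 (0.0245), a heme-binding partner of cytochrome P450 enzymes, lay nearest to CES1. GSTM5 had 84.7% of its summed CPM in liver, and CES1 had 84.4%. Nearest to AOC3 were EBF1 (0.0194), a transcription factor of adipocytes and B cells, MCTP1 (0.0197) and the matrix gene THBS2 (0.0227). Nearest to MGST1 were TRANK1 (0.0525) and the sterol desaturase SC5D (0.0564), at larger distances. These are likenesses over 4 libraries, and low counts leave them imprecise: AMDHD1 had 49 counts in liver, 9 in oWAT, 8 in sWAT and 1 in muscle. Ranked by Pearson correlation of log2(CPM + 1) in place of distance, AOX1, CES1 and AOC3 shared 0 of their 3 nearest genes and MGST1 1 of 3. UGT1A1, UGT2B20, SULT2A1 and AOC1 had counts in liver alone, and for each of them 121 other genes of the 5381 had the whole of their CPM in liver. For AADAC 131 genes had a liver share as high or higher.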

How the data were processed

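Full-length cDNA of total RNA was sequenced on the PacBio Sequel II platform from 4 tissues, in 1 library per tissue made from pooled RNA of 5 monkeys, per the labels. The authors deposited whole-number counts per gene, and alignment used minimap2 2.24 per the submitters' processing notes. Not given in the sources used here are the counting method, its use of strand, the genome build and the gene models, so no coordinates are given. Near-identical and overlapping genes could share reads. Counts that name no gene (14.3 to 19.5% of each library) were left out of totals and tests, and unlisted genes were taken as 0.

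From these counts, CPM, ratios with exact 95% Clopper-Pearson intervals and exact Poisson intervals were computed with SciPy 1.17.1, pandas 2.3.3 and NumPy 2.4.6 under Python 3.11.15, and plots made with matplotlib 3.10.9. With 1 library per tissue, edgeR 4.0.16 and DESeq2 1.42.0 (R 4.3.3) gave scaling factors only. A comparison against several libraries required the call in every pairing, and median log2 ratios used 0.5 added counts. The procedure was tested on simulated data. The enzymes, 11 enzyme lists and 8 marker lists were chosen with earlier results of these data known. Up to 4 genes per list with the most counts were named, plus genes called against the direction of their list and the 3 genes nearest in pattern. UGT8, AOC2, AOX2, AOX4, MOCOS, HNF4A, NR1I3, MOCS1, KDR, CLDN5, the single genes of the smooth muscle list and the marker genes at 0 were named after their values were seen. Gene order came from RefSeq (T2T-MFA8v1.1), which matched 12266 of 13982 genes and 6 of the 9 enzymes by symbol. Some genes that the naming rule would give are not reported here. Sequences were not used here. Alternatives covered scaling, count minimum, interval level, ratio bound and depth.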

Additional observations from a re-analysis of the deposited data

How the results depend on the processing

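Of the 9 enzymes, 7 were called in liver over the other libraries, 1 in both WAT libraries over liver, and 0 in oWAT over sWAT and in muscle, under all 10 alternatives. At the minimum of 10 counts, 8 of the 9 were measured in liver, 4 in both WAT libraries and 3 in muscle. The count in both WAT libraries over muscle went from 4 to 2 with TMM scaling (165 of all genes called in place of 389), with DESeq2 scaling (174 genes) and with a bound of 4 (80 genes). CES1 and AOC3 were lost each time. In sWAT over oWAT the count became 1, AOC3, with a bound of 1, where 8.99% of genes were called. Calls over all genes in both WAT libraries over liver went from 1154 to 491 with TMM and 501 with DESeq2 scaling. Of 195 recomputed ratios 191 kept direction and call and 4 lost the call, those of CES1 and AOC3 given above; none reversed. The interval changed its side of 1 in 8 of the 195. They were MGST1 in liver over oWAT and AOX1 in sWAT over oWAT with TMM, DESeq2 and totals without the 10 most abundant genes (1.96, 1.15 to 3.42, and 1.17, 1.01 to 1.37, under the last), and MGST1 in liver over sWAT with TMM and DESeq2. With 0.1 or 1 counts added, the medians of the 11 enzyme lists in liver kept their sign. So did those of the 8 lists measured in both WAT libraries over muscle. Other medians were not recomputed with these additions. With TMM and DESeq2 scaling the molybdenum list's median in both WAT libraries over muscle turned from 0.32 to -0.24 and -0.23. That of the esterase list turned as well, as given above. No paired analysis was possible because each group has 1 library. The marker lists were also summed without 1 gene, a choice made after seeing the data. A count of 0 outside liver has an exact 95% Poisson limit of 8.39 to 9.61 CPM, and the low counts of MGST1 and of AOC3 in liver leave wide intervals.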

Other observations

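Among other oxidizing enzymes, ALDH1A1, which makes retinoic acid from retinal, had 282 counts in liver, 310 in oWAT, 98 in sWAT and 16 in muscle. Its ratio of oWAT to sWAT was 3.06 (2.43 to 3.88), the only call between the WAT libraries in any of the 11 enzyme lists. ADH1B, an alcohol dehydrogenase, had 1669, 96, 161 and 31 counts in the same order, 9.09-fold higher in liver than in sWAT (7.73 to 10.8). ADH4 had 883 counts in liver, 1 in oWAT and 0 in muscle and sWAT, at least 258-fold over sWAT. ALDH3A2, a fatty aldehyde dehydrogenase, was 3.06-fold higher in liver than in oWAT (2.45 to 3.87). ALDH3B1 had 1 count in liver, 29 in oWAT, 13 in sWAT and 10 in muscle and was called in both WAT libraries over liver (14.8-fold in sWAT, 2.23 to 630), but not with TMM or DESeq2 scaling. In all, 8 of 13 measured alcohol, aldehyde and carbonyl enzymes were called in liver, and 10 with TMM or DESeq2 scaling.

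Of the flavin monooxygenases, 3 of 4 measured were called in liver. FMO2 had 0 counts in liver, 28 in oWAT, 8 in sWAT and 18 in muscle. Of the acyl and methyl transferases 6 of 10 were called in liver, or 8 with TMM or DESeq2 scaling. GLYAT, which conjugates acyl groups with glycine, had 257 liver counts and 0 elsewhere, at least 75.2-fold over sWAT. BAAT, which conjugates bile acids, had 240 in liver and 0 to 3 elsewhere, at least 70.2-fold over sWAT.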
